A study of Homo sapiens with 4 samples.

Results

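The SLC25 family comprises the mitochondrial carriers, nuclear-encoded proteins that mostly sit in the inner mitochondrial membrane and exchange nucleotides, phosphate, keto acids, amino acids, cofactors and metals between the cytosol and the matrix. Its members were taken as the protein-coding genes with an SLC25A symbol and a number, together with the mitochondrial carrier homologues MTCH1 and MTCH2 and the uncoupling proteins. 50 of the 32673 genes in the table met this definition, and UCP1, SLC25A2 and SLC25A31 were not analysed here. RNA sequencing compared imatinib-sensitive TF1-BA cells with imatinib-resistant TF1-BAR cells, in 2 libraries of each. TF1 is a human erythroleukaemia line that needs GM-CSF, TF1-BA are TF1 cells given the p210 form of BCR-ABL by retrovirus, and TF1-BAR cells were derived from them under prolonged exposure to imatinib, which blocks the ABL kinase. Every culture was labelled with GM-CSF, whose concentration differs between the labels (2 ng/ml) and the study's methods, 10% fetal bovine serum and 10000000 cells per replicate, and for the TF1-BAR cells 2 µM imatinib was added to the culture. The resistant libraries also carry a vector title, and resistance, the drug and any vector cannot be told apart in this design. There is 1 line of each kind, and nothing states that the libraries came from separate cultures, so p-values measure only the spread between these libraries, which may be technical.

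The libraries held 15465497 to 18042299 fragments. All 10 markers of the erythroid and myeloid lineage that were examined were expressed, at 6.64 to 241 FPKM (fragments scaled to gene length and library size). Their sum was 509 and 503 FPKM in TF1-BA cells against 591 and 629 in TF1-BAR, but the markers did not move together. CD34, CD33, GATA2, TAL1, EPOR and CSF2RB were higher in both TF1-BAR libraries. GATA1, KLF1 and CSF2RA were lower in both, and IL3RA overlapped between the lines. Of 9 markers of T, B, monocytic, fibroblast and epithelial cells, CD3E, CD14, COL1A2, CDH1 and EPCAM had at most 4 fragments in any library. The sum of the 9 was 22.8 and 24.7 FPKM in TF1-BA cells and 10.6 and 10.9 in TF1-BAR cells, mostly from the T cell gene CD3D, while the B cell gene CD79A was at 1.84 and 2.19 FPKM against 3.55 and 3.15. The part of either marker set in the carrier results was not tested.

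Mitochondrial carriers are built from similar repeats, each of which contributes membrane helices around a central substrate site. In the classical carriers every repeat holds a signature that begins with a proline, followed by an acidic and then a basic residue, and whose charged residues form a network that closes the carrier on its matrix side. The ADP/ATP carriers, which send newly made ATP to the cytosol, are the best known, and in erythroid cells the mitoferrins bring in the iron for haem.

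The carrier signature was looked for in the coding sequences of the 50 genes, as a way of showing what the family shares beyond its names. The search was in frame and on the coding strand of the MANE Select transcript of GENCODE 44, for a proline codon (CCN), any codon, an acidic codon (aspartate or glutamate), any 2 codons and a lysine or arginine codon (AAA or AAG for lysine, CGN or AGA or AGG for arginine), 18 bases in all. 44 of the 50 genes had at least 1 match, 39 at least 2 and 30 at least 3. Among all 19028 such coding sequences, 30.1% had at least 1 match, 8.61% at least 2 and 2.77% at least 3. No match was present in MTCH1, MTCH2, SLC25A46, SLC25A51, SLC25A52 or SLC25A53. The matches of the carnitine/acylcarnitine carrier, which had the largest log2 fold change in size among the 40 members tested on FPKM, are shown first because they show 1 match for each repeat of a typical carrier. The first matches of the other 4 genes are those of the abundant ADP/ATP carriers, UCP2 and SLC25A39, whose expression is described next. Capitals mark the proline, acidic and basic codons, and positions are on GRCh38.
SLC25A20, chr3:48898690-48898707, minus strand: CCTctgGACacggtcAAG
SLC25A20, chr3:48879370-48879387, minus strand: CCTggaGAAcggatcAAG
SLC25A20, chr3:48859108-48859125, minus strand: CCCccaGATgtgctcAAG
SLC25A39, chr17:44323321-44323338, minus strand: CCCctgGACgtggtgAAG
UCP2, chr11:73978265-73978282, minus strand: CCTctgGATactgctAAA
SLC25A6, chrX:1391911-1391928, minus strand: CCGatcGAGcgggtcAAG
SLC25A5, chrX:119468597-119468614, plus strand: CCCatcGAGcgggtcAAG

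The carriers changed little between the cell lines, and those that did change fell into both directions. 40 of the 50 genes passed the filter of a mean FPKM of at least 0.5 and were tested with limma among 15519 genes, on log2(FPKM + 0.5), a scale that understates the change of genes with low FPKM. 4 members were higher in TF1-BAR cells at an adjusted p under 0.05, against 16.3% of all genes tested, and 4 were lower, against 10.5%. Among the protein-coding genes tested these shares were 16.6% and 12.5%. The higher members were SLC25A13, SLC25A37, SLC25A6 and SLC25A3, and the lower ones SLC25A20, SLC25A16, UCP2 and SLC25A39. None of the 40 also reached an absolute log2 fold change of 1. By the same limma test 4.75% of all genes did, as did 432 of the 11685 protein-coding genes tested. 11 members had an unadjusted p under 0.05, as did 6546 of the 15519 genes tested. limma voom on recovered fragments placed 1 member past both thresholds, UCP3, which is below the FPKM filter and passed the voom filter only through its TF1-BAR libraries. The 4 higher members became 0 without TF1-BA replicate 1, TF1-BA replicate 2 or TF1-BAR replicate 2, and the 4 lower ones became 0 without TF1-BA replicate 1 and 1 without TF1-BA replicate 2, fits that leave 1 library in a line.

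The median log2 fold change of the 40 members was −0.016, beside 0.066 over all genes tested and 0.037 over the protein-coding genes. It ranged from −0.92 to 0.47, and 36 members (90.0%) were under 0.5 in size, as were 76.0% of all genes tested and 80.7% of the protein-coding genes. The FPKM of the cell lines did not overlap for 13 members that were higher and 12 that were lower in TF1-BAR cells. These are out of the 40 members tested. Among all genes tested, 40.9% did not overlap in the higher direction and 28.4% in the lower, and whether the family differs from these shares was not tested. Under upper-quartile scaling 3 members were higher and 5 lower, and 45.9% of all genes called were then higher in TF1-BAR cells in place of 60.9%.

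**Figure D1:**
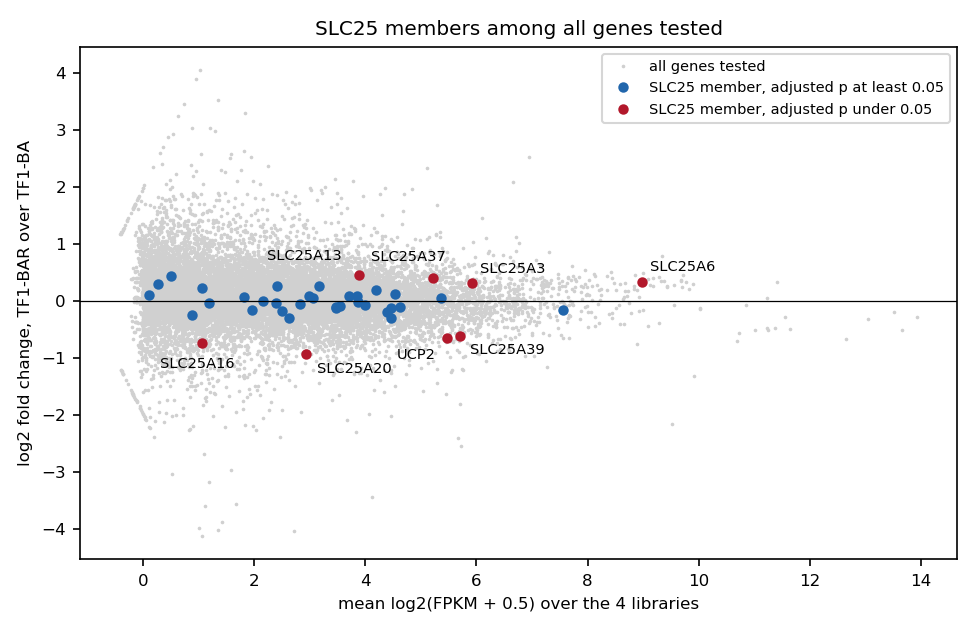
Log2 fold change of TF1-BAR over TF1-BA cells against the mean log2(FPKM + 0.5) of the 4 libraries, for all 15519 genes tested (grey) and the 40 SLC25 members tested (blue, or red at an adjusted p under 0.05 by limma). The members lie between −0.92 and 0.47 at every level of expression, and the red ones are spread from the low SLC25A16 to the abundant SLC25A6.

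**Figure D2:**
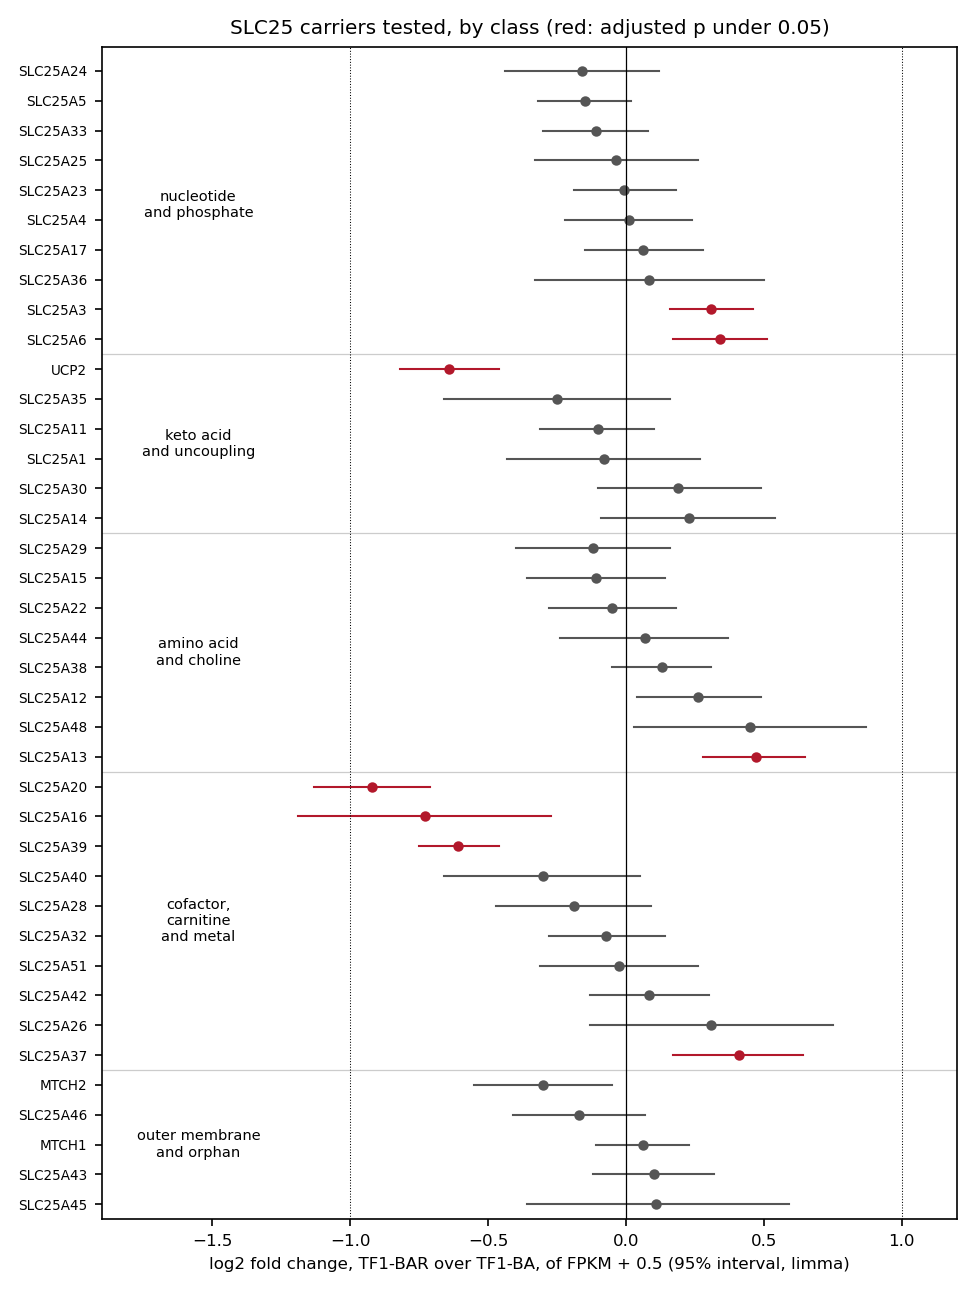
Log2 fold changes of 39 of the 40 SLC25 members tested, with 95% intervals from limma, grouped by what they carry. Red marks an adjusted p under 0.05, and dotted lines mark a log2 fold change of 1 in either direction. The lower members lie in the cofactor, carnitine and metal class except UCP2, and the higher ones are spread over 3 classes.

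Carriers of nucleotides and phosphate were the most abundant class and included 2 of the higher members. Of its 11 genes 10 were tested, 2 were higher and 0 lower by limma, beside 16.3% and 10.5% of all genes tested. The median log2 fold change of the class was 0.002. SLC25A6 (ANT3, an ADP/ATP carrier, chrX:1386152-1392724, minus strand, in the pseudoautosomal region) had the highest level of the family, with 432 and 467 FPKM in TF1-BA cells and 552 and 587 in TF1-BAR cells. The libraries of the 2 lines were apart, and the log2 fold change was 0.34 ± 0.067 (standard error, limma adjusted p = 0.024). SLC25A5 (ANT2, the ADP/ATP carrier of proliferating cells) was at 197 and 200 FPKM in TF1-BA cells and at 187 and 171 in TF1-BAR cells. It was slightly lower in both resistant libraries but did not pass the test (log2 fold change −0.15, 95% interval −0.32 to 0.02, limma adjusted p = 0.155). SLC25A4 (ANT1, the ADP/ATP carrier of heart and muscle) was the lowest of the group, at 3.80 to 4.14 FPKM over the 4 libraries, with overlapping values.

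SLC25A6 therefore made up a larger share of the ADP/ATP carrier mRNA in TF1-BAR cells. It took 68.3% and 69.6% of the summed FPKM of the group in TF1-BA cells and 74.3% and 77.1% in TF1-BAR cells, a mean of 68.9% ± 0.958 against 75.7% ± 1.98 (SD, n = 2). SLC25A5 took 31.1% and 29.8% against 25.2% and 22.4%. The shares did not overlap, but with 2 libraries per line an exact two-sided permutation test cannot give a p below 0.333. These genes have close sequences and processed pseudogenes, and how reads that fit several copies were divided could move their values. SLC25A5 is also overlapped on the opposite strand by SLC25A5-AS1, and reads of the pair cannot be separated without strand.

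SLC25A3, the phosphate carrier that supplies the matrix with phosphate for ATP synthesis (chr12:98593591-98606379, plus strand), was also higher in TF1-BAR cells. Its FPKM was 54.9 and 52.8 in TF1-BA cells and 67.3 and 66.8 in TF1-BAR cells, a gap wider than the difference within either line. The log2 fold change was 0.31 ± 0.058 (standard error, limma adjusted p = 0.022). The small nucleolar RNA gene SNORA53 lies within it. Neither SLC25A6 nor SLC25A3 kept an adjusted p under 0.05 without the filter on low values (0.116 and 0.0521), in limma without a trend (0.0684 and 0.0621), or without TF1-BA replicate 1, TF1-BA replicate 2 or TF1-BAR replicate 2.

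The ATP-Mg/phosphate carriers, which load the matrix with adenine nucleotides, had no member that passed the test. SLC25A23, the most abundant of them, was at 14.5 and 13.7 FPKM in TF1-BA cells and at 13.8 and 14.2 in TF1-BAR cells. It took 62.2% to 63.7% of the group in all 4 libraries, and SLC25A24 and SLC25A25 had log2 fold changes of −0.16 and −0.035. The FPKM of the lines overlapped for SLC25A23 and SLC25A25 and did not for SLC25A24, which was lower in TF1-BAR cells. SLC25A41, named after its values were seen, lies 2299 bases from SLC25A23 and had 4 and 2 fragments in TF1-BA cells and 7 and 10 in TF1-BAR cells. The pyrimidine nucleotide carriers SLC25A33 and SLC25A36, which move nucleotides for mitochondrial RNA and DNA synthesis, were examined next. SLC25A36, the leading one, had 13.7 and 13.4 FPKM in TF1-BA cells against 16.9 and 12.2 in TF1-BAR, and SLC25A33 was at 9.89 to 11.2 FPKM. SLC25A36 overlapped between the lines and SLC25A33 did not, with log2 fold changes of 0.085 and −0.11 that did not pass the test. SLC25A17, a peroxisomal carrier of cofactors, was at 7.29 to 8.18 FPKM with overlapping values.

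Among the keto acid carriers and uncoupling proteins, UCP2 was lower in TF1-BAR cells and no other member passed the test. 6 of the 11 genes of this class were tested, with a median log2 fold change of −0.091. UCP2, which carries C4 metabolites out of the matrix and is abundant in blood cells (chr11:73974667-73983307, minus strand), had 52.7 and 57.1 FPKM in TF1-BA cells and 34.2 and 35.9 in TF1-BAR cells. Both resistant libraries lay well under both sensitive ones, at 0.638 times the mean. The log2 fold change was −0.64 ± 0.071 (standard error, limma adjusted p = 0.0078), and the call was lost without TF1-BA replicate 1 or TF1-BA replicate 2, where the adjusted p reached 0.0676.

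UCP3, the muscle form that lies 16973 bases from UCP2, was seen in few reads, with 8 and 4 fragments in TF1-BA cells and 20 and 19 in TF1-BAR cells. It is named after its values were seen. Its values were apart in the opposite direction from UCP2, at 0.120 and 0.0702 FPKM against 0.344 and 0.321. With no filter on low values limma gave an adjusted p of 0.0886, and voom on the recovered fragments gave a log2 fold change of 1.74 (adjusted p = 0.00604). UCP3 met the voom minimum of a mean of 10 fragments only through the TF1-BAR libraries, where it is high, so that fit favoured a difference and nothing is drawn from it. UCP2 took 99.0% to 99.9% of the summed FPKM of the pair in every library.

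The other keto acid carriers tested did not pass the test. SLC25A1, which exports citrate for fatty acid synthesis, had 10.3 and 12.8 FPKM in TF1-BA cells and 10.0 and 11.8 in TF1-BAR cells, and SLC25A11, the oxoglutarate carrier of the malate-aspartate shuttle, had 24.0 and 25.8 against 22.1 and 24.3. Their values overlapped. SLC25A30 and SLC25A14 had log2 fold changes of 0.19 and 0.23, and SLC25A35, an orphan, of −0.25, and the values of these 3 did not overlap between the lines. SLC25A10, SLC25A21, SLC25A34 and SLC25A27 were below the filter, each at 0.613 FPKM or less in every library.

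The amino acid carriers were grouped with the choline carrier SLC25A48. Of 8 tested in this class 1 was higher and none lower by limma, beside 16.3% and 10.5% of all genes tested. The median log2 fold change of the class was 0.099. SLC25A13 (citrin, one of the aspartate/glutamate carriers that drive the malate-aspartate shuttle, chr7:96120220-96322147, minus strand) was the higher member with the largest log2 fold change of the 4 called. It had 11.6 and 12.5 FPKM in TF1-BA cells and 16.9 and 16.7 in TF1-BAR cells, 1.4 times the mean. The libraries of the lines were apart, with a log2 fold change of 0.47 ± 0.072 (standard error, limma adjusted p = 0.015) that lost its call without TF1-BA replicate 1, TF1-BA replicate 2 or TF1-BAR replicate 2 (adjusted p up to 0.118).

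SLC25A12 (aralar, its paralogue) was at 7.95 and 7.49 FPKM against 8.90 and 9.85, and both resistant libraries were higher. Its log2 fold change of 0.26 did not pass the limma test (adjusted p = 0.083) but did after rescaling to TPM (0.0488), among protein-coding genes only (0.0479) and with voom (0.0383). The sum of both carriers was 19.57 and 19.97 FPKM in TF1-BA cells and 25.8 and 26.6 in TF1-BAR cells, and the share of SLC25A13 was 59.4% and 62.5% against 65.5% and 62.9%. The summed level was thus higher in both resistant libraries, and the share of SLC25A13 did not overlap, although its nearest values were close.

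SLC25A38, which carries glycine for the first step of haem synthesis, was at 22.3 and 21.1 FPKM in TF1-BA cells and 23.1 and 24.5 in TF1-BAR cells (log2 fold change 0.13, limma adjusted p = 0.228). SLC25A15, the ornithine carrier of the urea cycle, had 11.8 and 10.3 FPKM against 9.77 and 10.6, with overlap. SLC25A22 took 97.7% to 99.6% of the glutamate carrier mRNA, the rest being SLC25A18, and was at 7.11 and 6.29 FPKM in TF1-BA cells against 6.499 and 6.40 in TF1-BAR, with overlap. SLC25A29 and SLC25A44, which carry basic and branched-chain amino acids, had log2 fold changes of −0.12 and 0.069. SLC25A48, a choline carrier named after its values were seen, was near the filter with 66 and 53 fragments in TF1-BA cells and 100 and 83 in TF1-BAR cells. Its log2 fold change of 0.45 did not pass the limma test (adjusted p = 0.103) but did among protein-coding genes only (0.0215), and with voom it was 0.68 (adjusted p = 0.0172).

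**Figure D3:**
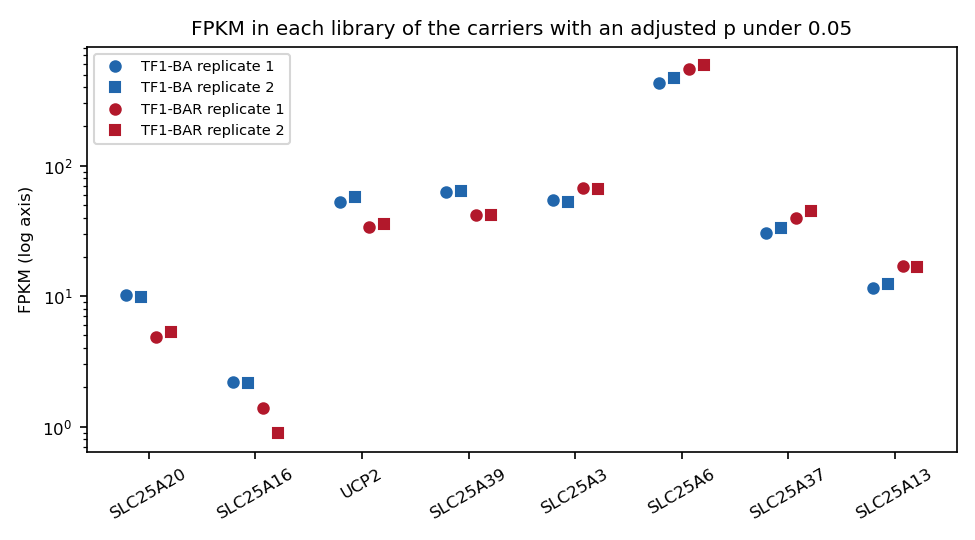
FPKM on a log axis in each of the 4 libraries for the 8 members with an adjusted p under 0.05 by limma, ordered by log2 fold change. Circles and squares are replicates 1 and 2, blue the TF1-BA and red the TF1-BAR cells. The libraries of the lines are apart for all 8, and the levels span from 0.892 FPKM for SLC25A16 to 587 for SLC25A6.

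Carriers of cofactors, carnitine and metals had the widest spread. Of 11 tested 1 was higher and 3 lower by limma, beside 16.3% and 10.5% of all genes tested. The median log2 fold change of the class was −0.072, and the median size without regard to sign was 0.303, beside 0.152 for the family and 0.267 over all genes tested. SLC25A20, the carnitine/acylcarnitine carrier that brings long-chain fatty acids to beta-oxidation (chr3:48856931-48898993, minus strand), had the largest log2 fold change in size among the 40 members tested on FPKM, while UCP3 and SLC25A41 below the filter had larger ratios of FPKM. Its FPKM was 10.3 and 9.85 in TF1-BA cells and 4.87 and 5.27 in TF1-BAR cells, from 367, 302, 152 and 168 fragments. Each resistant library was about level with the other and far below the sensitive ones, at 0.504 times the mean, and the log2 fold change was −0.92 ± 0.082 (standard error, 95% interval −1.13 to −0.71, limma adjusted p = 0.0056). Under upper-quartile scaling it was −1.01 and then passed both thresholds. The adjusted p was 0.0509 without TF1-BA replicate 1 and under 0.05 in every other alternative run. The 48 other genes tested within 1 Mb had a median log2 fold change of 0.02.

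SLC25A39, a carrier of glutathione into the matrix (chr17:44319625-44324870, minus strand), was lower as well. It had 63.2 and 64.3 FPKM in TF1-BA cells and 41.7 and 41.8 in TF1-BAR cells, which placed it among the 5 most abundant members. The libraries of each line were nearly equal and the lines were apart, with a log2 fold change of −0.61 ± 0.056 (standard error, limma adjusted p = 0.0060, and up to 0.0626 without TF1-BA replicate 1 or TF1-BA replicate 2). SLC25A40, its paralogue, was less abundant, at 5.79 and 6.91 FPKM against 5.59 and 4.53, and its log2 fold change of −0.30 did not pass the test (limma adjusted p = 0.166).

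SLC25A16, which has been linked to coenzyme A in mitochondria, was low in all cells and lower in TF1-BAR cells. Its FPKM was 2.199 and 2.168 in TF1-BA cells and 1.38 and 0.892 in TF1-BAR cells. The resistant libraries differed between themselves, and the log2 fold change was −0.73 ± 0.179 (standard error, limma adjusted p = 0.041). The call was lost without the filter on low values (0.128), in limma without a trend (0.0539) and without TF1-BA replicate 1, TF1-BA replicate 2 or TF1-BAR replicate 2. SLC25A16 lies on chromosome 10 (chr10:68477999-68527474, minus strand), whose 593 genes tested had a median log2 fold change of −0.346. Of the 21 other genes tested within 1 Mb of it, 14 were lower and 0 higher, with a median of −0.53. Whether its difference is part of that of the chromosome was not tested. Without the 2 members on chromosome 10, the family had 4 higher and 3 lower of 38 tested and a median of 0.002.

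The mitoferrins differed in their proportions. SLC25A37 (mitoferrin-1, the importer of iron for haem in erythroid cells, on chromosome 8) had 30.6 and 33.4 FPKM in TF1-BA cells and 39.9 and 45.3 in TF1-BAR cells. SLC25A28 (mitoferrin-2, its widely expressed paralogue, on chromosome 10) had 21.9 and 22.1 against 17.4 and 21.2. The first was higher in both resistant libraries and the second lower. For SLC25A37 the log2 fold change was 0.41 ± 0.091 (standard error, limma adjusted p = 0.033), with a higher adjusted p under upper-quartile scaling (0.0554), without the filter (0.0965), without a trend (0.0693) and without TF1-BA replicate 1, TF1-BA replicate 2 or TF1-BAR replicate 2. The 20 other genes tested within 1 Mb of SLC25A37 had a median log2 fold change of 0.25, with 4 higher and 0 lower, beside a median of 0.072 on its chromosome, and the part of these surroundings in its value was not tested. For SLC25A28 the log2 fold change was −0.19 (limma adjusted p = 0.243). SLC25A37 took 58.3% and 60.2% of the pair in TF1-BA cells and 69.7% and 68.1% in TF1-BAR cells, a mean of 59.3% ± 1.40 against 68.9% ± 1.08 (SD, n = 2).

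The remaining cofactor carriers did not pass the test. SLC25A32, for folate and FAD, was at 14.4 to 16.3 FPKM, SLC25A42, for coenzyme A, at 11.8 to 13.5, and SLC25A51, for NAD, had 1.73 and 1.85 FPKM in TF1-BA cells against 1.72 and 1.78 in TF1-BAR. SLC25A26, for S-adenosylmethionine, had a log2 fold change of 0.31. SLC25A52, the other NAD carrier gene, had 0 fragments in both TF1-BA libraries and 1 in each TF1-BAR library.

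**Figure D4:**
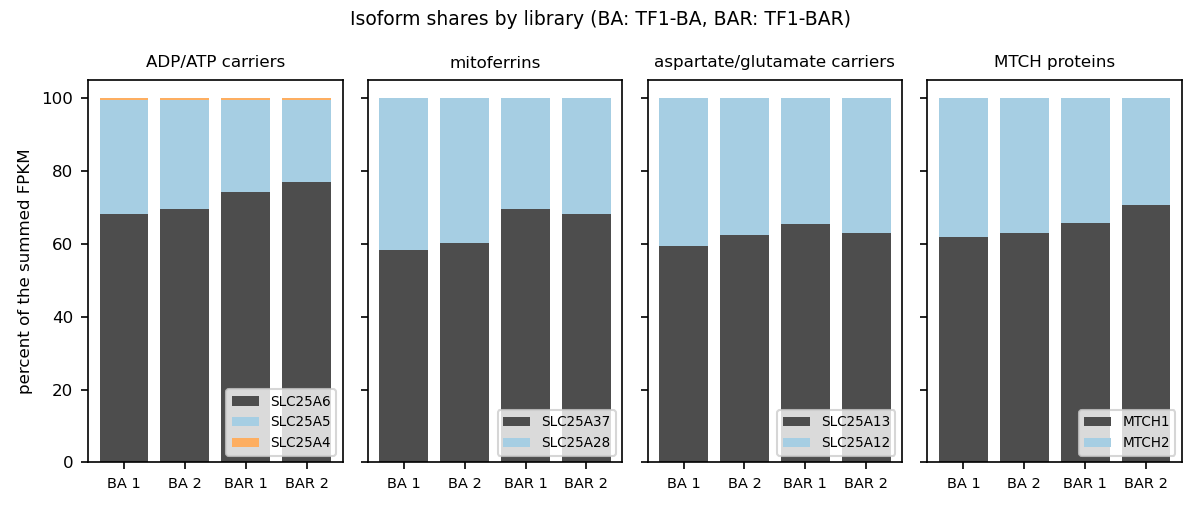
Percent of the summed FPKM of a paralogue group taken by each member, as stacked bars from 0 for each of the 4 libraries (BA, TF1-BA; BAR, TF1-BAR). The dark share is larger in both TF1-BAR libraries for the ADP/ATP carriers (SLC25A6), the mitoferrins (SLC25A37), the MTCH proteins (MTCH1) and, by a narrow gap, the aspartate/glutamate carriers (SLC25A13).

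The outer membrane homologues and orphans had no member with an adjusted p under 0.05 among 5 tested, and a median log2 fold change of 0.061. By limma, 16.3% of all genes tested were higher and 10.5% lower. MTCH1 and MTCH2, insertases for helical proteins of the outer membrane, were at 39.4 and 40.4 against 40.1 and 43.2 FPKM, and at 24.2 and 23.6 against 21.0 and 17.8. MTCH2 was lower in both TF1-BAR libraries, with a log2 fold change of −0.30 (limma adjusted p = 0.078) that passed under upper-quartile scaling (0.0470), among protein-coding genes only (0.0317) and with voom (0.0231). MTCH1 took 61.9% and 63.1% of the pair in TF1-BA cells and 65.7% and 70.8% in TF1-BAR cells. SLC25A46, an outer membrane protein of mitochondrial fission, had a log2 fold change of −0.17, and the orphans SLC25A43 and SLC25A45 of 0.10 and 0.11. SLC25A53 was below the filter at 0.246 to 0.306 FPKM, and SLC25A47, a liver gene, had 1 fragment in all.

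Summed over the 50 genes, carrier mRNA was slightly more abundant in TF1-BAR cells, and without SLC25A6 slightly less. The sum was 1185 and 1227 FPKM in TF1-BA cells and 1267 and 1302 in TF1-BAR cells, a difference of 77.8 between the means that became 137 after rescaling to TPM and 31.4 after quantile normalization. SLC25A6 alone was 36.4% and 38.0% of the sum in TF1-BA cells and 43.6% and 45.1% in TF1-BAR cells. Without it the sums were 754 and 761 against 715 and 714, a difference of −42.5 between the means that became −7.62 after rescaling to TPM and −55.2 after quantile normalization. The 5 most abundant members were SLC25A6, SLC25A5, SLC25A3, SLC25A39 and UCP2. All but SLC25A5 differed between the lines by limma, as did 4167 of the 15519 genes tested. SLC25A39 was above SLC25A3 in both TF1-BA libraries and below it in both TF1-BAR libraries. UCP2 was below SLC25A3 in TF1-BA replicate 1, above it in TF1-BA replicate 2 and below it in both TF1-BAR libraries.

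Genes that act beside the carriers were listed in 3 groups to show the setting of these values. Carriers are taken into the mitochondrion by the TOM complex, small TIM chaperones of the intermembrane space and the TIMM22 complex. Of 15 such import genes tested 3 were higher and 0 lower by limma, beside 16.3% and 10.5% of all genes tested, with a median log2 fold change of 0.051. TIMM10B, a subunit of the TIMM22 complex, rose from 6.65 and 6.68 FPKM to 12.8 and 12.7 (log2 fold change 0.89, limma adjusted p = 0.0046), and is overlapped on the other strand by ARFIP2. TIMM9, a small chaperone, rose from 14.9 and 14.4 to 22.0 and 21.2 (0.55, limma adjusted p = 0.0092), and is overlapped on the other strand by KIAA0586. The third was TIMM8A, another small chaperone (0.45, limma adjusted p = 0.037), while TIMM22 itself was at 6.49 and 7.07 FPKM against 6.32 and 6.60. TIMM8A passed in 8 of the 11 alternatives that kept all 4 libraries, and TIMM9 and TIMM10B in all. The count of import genes was 1 without TF1-BA replicate 1 and 1 without TF1-BA replicate 2.

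Of 21 mitochondrial transporters outside the family 1 was higher and 6 were lower by limma, beside the same 16.3% and 10.5% of all genes, with a median log2 fold change of −0.197. MICU2, a calcium-sensing subunit of the calcium uniporter, fell from 16.8 and 16.7 FPKM to 9.71 and 7.46 (log2 fold change −0.94, limma adjusted p = 0.012). SMDT1, which holds the uniporter pore to its sensors, rose from 5.12 and 4.82 to 7.40 and 7.15 (0.51, limma adjusted p = 0.015). ABCB10, an inner membrane transporter that partners mitoferrin-1, fell from 14.9 and 12.9 FPKM to 9.30 and 8.58 (−0.61, limma adjusted p = 0.017), in the direction opposite to SLC25A37. MPC2, a subunit of the pyruvate carrier, fell from 4.54 and 4.64 to 2.93 and 2.85 (−0.58, limma adjusted p = 0.012), and overlaps DCAF6. VDAC2, a pore of the outer membrane on chromosome 10, and TSPO were also lower, and outside that chromosome 1 was higher and 4 lower of 15. The count of 7 fell to 0 without TF1-BA replicate 1 or TF1-BA replicate 2, and to 3 without TF1-BAR replicate 2.

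Enzymes that use or supply what the carriers move were lower more often than higher. Of 19 tested 0 were higher and 10 lower by limma, while 16.3% of all genes tested were higher and 10.5% lower, with a median log2 fold change of −0.372. OAT, which makes or breaks down ornithine in the matrix, fell from 74.7 and 67.4 FPKM to 29.9 and 31.1 (log2 fold change −1.21, limma adjusted p = 0.0036) and was the 1 gene of the list past both thresholds. GOT1, the cytosolic aspartate transaminase of the malate-aspartate shuttle, fell from 100 and 123 to 56.3 and 65.0 (−0.87, limma adjusted p = 0.012), and GLUD1, the matrix glutamate dehydrogenase, from 46.2 and 42.9 to 30.5 and 29.2 (−0.57, limma adjusted p = 0.0092), the last overlapped by FAM35A. These 3 enzymes all lie on chromosome 10, with its median of −0.346, and the part of the chromosome in their values was not tested. Of the 16 outside it 7 were lower and 0 higher, with a median of −0.227.

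CPT1A, which forms the acylcarnitines that SLC25A20 carries, fell from 29.7 and 27.1 FPKM to 17.6 and 19.5 (log2 fold change −0.60, limma adjusted p = 0.012). CPT2, which takes them apart in the matrix, was at 2.22 and 2.18 against 1.67 and 1.93 (−0.23, limma adjusted p = 0.193). NNT, the transhydrogenase that makes matrix NADPH, fell from 15.67 and 15.975 to 9.60 and 7.99 (−0.82, limma adjusted p = 0.010) and is overlapped by NNT-AS1. ARG2, the mitochondrial arginase, fell from 9.08 and 11.5 to 6.14 and 7.36 (−0.57, limma adjusted p = 0.047) and overlaps VTI1B. NADK2, the mitochondrial NAD kinase, fell from 13.5 and 12.6 to 10.1 and 8.14 (−0.50, limma adjusted p = 0.038) and is overlapped by NADK2-AS1. MTHFD2, COASY and MDH1 were lower too, with log2 fold changes of −0.46, −0.43 and −0.37. Of the 11 alternatives that kept all 4 libraries, ARG2 and MTHFD2 each passed in 8 and NADK2 in 9, while COASY and MDH1 passed in all. GOT2 and CS, the mitochondrial transaminase and citrate synthase, had log2 fold changes of 0.017 and 0.024. The count of 10 was 5 without the filter on low values, 2 without TF1-BA replicate 1 and 1 without TF1-BA replicate 2.

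**Figure D5:**
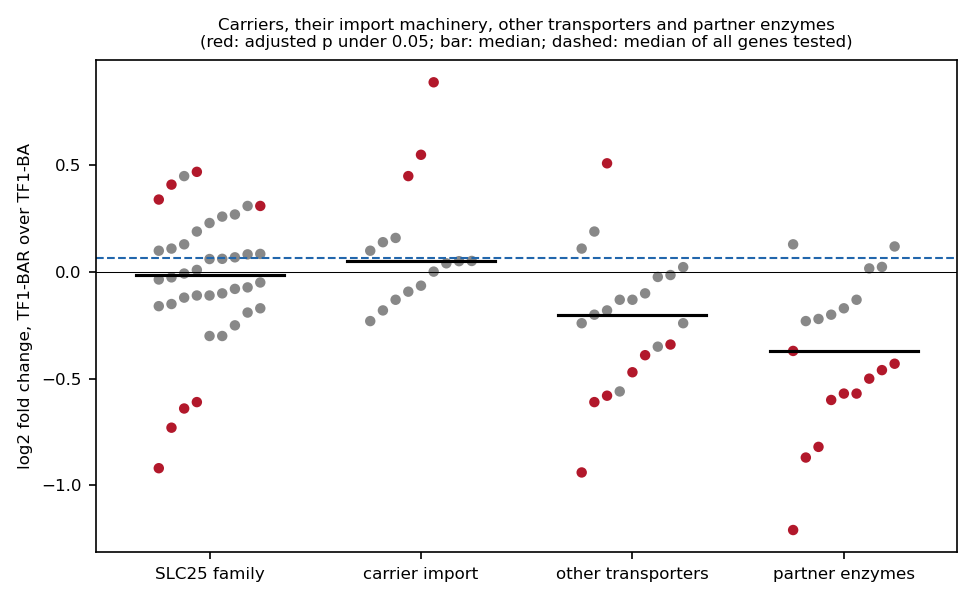
Log2 fold changes of TF1-BAR over TF1-BA cells for the 40 SLC25 members, 15 import genes, 21 other mitochondrial transporters and 19 partner enzymes tested, 1 point per gene. Red points have an adjusted p under 0.05 by limma, bars are medians (−0.016, 0.051, −0.197 and −0.372) and the dashed line is the median of all genes tested (0.066). The carriers centre near 0 while the enzymes lie mostly below it.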

How the data were processed

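The authors sequenced 2 libraries of TF1-BA and 2 of TF1-BAR cells (NEBNext Ultra kit), whose strandedness is not given in the sources used here. The deposited values are FPKM per library, which the authors made from paired-end reads mapped to GRCh38 with TopHat 2.0.13 and the Cufflinks and Cuffdiff 2.2.0 programs, per the study's methods and the submitters' processing notes. The annotation release is not given in the sources used here.

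FPKM were used as deposited. The cell lines were compared on log2(FPKM + 0.5) by limma 3.58.1 under R 4.3.3 (lmFit, then eBayes with trend) for 15519 genes whose mean FPKM reached 0.5, with Benjamini-Hochberg adjustment over all of them, and differential expression also required an absolute log2 fold change of 1. The test was also run on simulated data, and nothing is drawn from that run here. Whole fragments were recovered from the FPKM by a search for library sizes and gene lengths. All 30853 genes above 0 became whole within about 0.001 fragments, 14220 of them at the GENCODE 44 exon length and 16633 at a fitted length. With wrong sizes 0 of 300 did. These 300 were drawn from genes whole at the exon length and above 0.5 FPKM in every library, so the trial does not cover the fitted lengths. By the recovered numbers, 98.67% to 98.72% of each library lay in listed genes. Fragment numbers cover counting error only. Gene positions are those given with the deposited FPKM. Positions of the signature matches are from GENCODE 44, which holds 32278 of the 32673 gene identifiers.

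The members, classes, gene lists and tests were chosen with earlier results of these data known. Values in every library are given for members with an adjusted p under 0.05, the 5 with the highest mean FPKM and the leading members of paralogue groups. From the lists, genes with an adjusted p under 0.05 and a log2 fold change of at least 0.5 in size are named, and others are named as examples after their values were seen. TOMM6 and MICU3 of the lists were not analysed here, and 1 enzyme was below the filter. Some genes of the family and lists are not reported by name here. Alternatives were pseudocounts of 1 and 0.1, a minimum mean FPKM of 1, no filter, quantile normalization, upper-quartile scaling, rescaling to TPM, eBayes without trend, a replicate block and leaving out each library. limma voom on recovered fragments (mean of at least 10) and protein-coding genes only were added after seeing the data.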

Additional observations from a re-analysis of the deposited data

How the results depend on the processing

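The counts of SLC25 members past the thresholds kept to within 1.5 times their values in most alternatives. Past both thresholds, 0 members became 1 under upper-quartile scaling (SLC25A20) and 1 with voom on recovered fragments (UCP3, which met the voom minimum only through the TF1-BAR libraries). The 4 higher members became 1 without the filter on low values, 1 in limma without a trend and 7 with voom, UCP3 included. With the filter off, more genes are adjusted for. Leaving out 1 library gave 0 to 4 higher and 0 to 5 lower members, 1 to 2 import genes, 0 to 8 other transporters, 1 to 9 partner enzymes and 56.9 to 98.7 FPKM for the difference in the family sum, and each of the lowest counts came without a TF1-BA library (for the higher members also without TF1-BAR replicate 2), where the lone sample is assumed to vary like the other line. The partner enzymes came to 5 without the filter. The difference in the family sum of 77.8 FPKM was 137 after rescaling to TPM and 31.4 after quantile normalization, and the cause was not tested.

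For single genes, 536 of 597 values kept their direction and side of the threshold, 29 lost the call, 9 gained it and 23 changed sign. Under upper-quartile scaling these were MTCH1 (−0.031), SLC25A36 (−0.004), SLC25A42 (−0.006), SLC25A17 (−0.025), SLC25A4 (−0.072) and SLC25A44 (−0.011). Quantile normalization turned SLC25A4 (−0.076), SLC25A44 (−0.026) and SLC25A45 (−0.037), and rescaling to TPM turned SLC25A23 (0.06), SLC25A22 (0.015), SLC25A25 (0.027) and SLC25A51 (0.028). Without 1 library the ranges were −0.047 to 0.034 for SLC25A23, −0.143 to 0.313 for SLC25A36, −0.229 to 0.070 for SLC25A1, −0.131 to 0.034 for SLC25A22, −0.169 to 0.099 for SLC25A25, −0.044 to 0.065 for SLC25A4, −0.040 to 0.178 for SLC25A44 and −0.062 to 0.011 for SLC25A51.

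The replicate numbers come from the sample titles, and nothing says that a number marks a shared culture or day. Deviations of same-numbered libraries correlated at 0.0646 over 15519 genes in 2 pairs, so the numbers were not taken as pairs. With the replicate number as a block, 4 members were higher and 4 lower, and 3 import genes, 8 other transporters and 10 enzymes were called. With 2 libraries per line, small differences of genes with few fragments were not detectable.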
